A study of Mus musculus with 16 samples.

Results

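The Siglec receptors are lectins of the immunoglobulin superfamily on the surface of immune cells that bind sialic acids, the sugars that cap most glycans of vertebrate cells. The genes described here are Siglech, Siglec1, Siglece, Siglecf, Siglecg, Cd33 and Cd22, a list given by name, and all 7 were found among the 18576 genes to which the transcripts of the series were summed. The series holds RNA of brain macrophages and microglia of mice, sequenced by SMART-seq2, a method for copying whole mRNA molecules from few cells. Male and female CD163KO mice (CD163tm1.1(KOMP)Vlcg, which lack the hemoglobin scavenger receptor Cd163 in all cells) and WT littermates (C57BL/6N), 12 weeks old at surgery, received monomeric α-syn (MONO) or α-syn pre-formed fibrils (PFF) in both striata, and their brains were taken 2 months later. No uninjected or PBS-injected brain is among these groups, so every library comes from a brain that received α-syn. Microglia were sorted as CD11b+ cells with low or intermediate CD45 and macrophages as CD11b+ cells with high CD45. Per the methods, the latter gate holds NK cells, neutrophils, and macrophages both of the borders and infiltrated from blood. Fewer cells were sorted for a macrophage library than for a microglia library. With 2 populations, 2 sexes, 2 genotypes and 2 treatments there were 16 libraries, 1 for each combination. Several mice contributed to each condition. The methods state that triplicates were used, and the sources used here do not give how these became 1 table per group. The p-values below therefore measure the spread between libraries of different sex, genotype and treatment. The study left out its male CD163KO MONO group because technical replicates did not match. Tests were therefore made on the 14 other libraries, while ranges and medians cover all 16.

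Most Siglecs carry a tyrosine motif (ITIM) in the cytoplasmic tail that is phosphorylated by Src family kinases and then recruits the phosphatases encoded by Ptpn6 and Ptpn11, which dampens activation of the cell. Siglec-H lacks this motif and signals through the adaptor DAP12 (Tyrobp). Sialoadhesin, the product of Siglec1, acts mainly in adhesion. In the brain, Siglech is a widely used marker of microglia, and Siglece is an inhibitory receptor of neutrophils, monocytes and microglia. Siglecf is best known from eosinophils and alveolar macrophages, and Cd22 and Siglecg are known as inhibitory receptors of B cells.

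Siglecf, Siglecg, Cd33 and Siglece lie in 1 stretch of 320.7 kb on mouse chromosome 7, Siglech and Cd22 lie elsewhere on that chromosome, and Siglec1 lies on chromosome 2 (GRCm38.p6, the RefSeq name of the build that the submitters' notes call mm10). RefSeq promoter windows, which run from 250 bases before to 50 bases after a start of transcription, were found for 6 of the 7 genes and not for Siglec1. The windows of 4 genes are printed because the comparison of the populations turns on their RNA (Siglech, Siglece, Siglecf) or because the windows resembled each other (Cd33, Siglecf). Each is written 5′ to 3′ on the strand of the gene, and capitals mark matches on either strand to GAGGAA (ETS-type), TGTGGT (RUNX) or TTNNGCAA (C/EBP).
Siglech, chr7:55767934-55768233, plus strand: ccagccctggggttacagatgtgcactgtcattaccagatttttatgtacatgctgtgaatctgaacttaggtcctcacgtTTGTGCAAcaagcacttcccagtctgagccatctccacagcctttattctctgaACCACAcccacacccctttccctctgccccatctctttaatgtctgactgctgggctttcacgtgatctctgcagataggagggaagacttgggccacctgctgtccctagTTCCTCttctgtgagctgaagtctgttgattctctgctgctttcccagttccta
Siglece, chr7:43660112-43660411, minus strand: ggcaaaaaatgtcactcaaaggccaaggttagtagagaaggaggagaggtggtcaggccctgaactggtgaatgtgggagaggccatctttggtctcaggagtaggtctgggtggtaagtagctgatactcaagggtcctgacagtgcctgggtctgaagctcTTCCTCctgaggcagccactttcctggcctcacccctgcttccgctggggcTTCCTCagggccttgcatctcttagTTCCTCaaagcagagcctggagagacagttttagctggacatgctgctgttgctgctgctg
Cd33, chr7:43533122-43533421, minus strand: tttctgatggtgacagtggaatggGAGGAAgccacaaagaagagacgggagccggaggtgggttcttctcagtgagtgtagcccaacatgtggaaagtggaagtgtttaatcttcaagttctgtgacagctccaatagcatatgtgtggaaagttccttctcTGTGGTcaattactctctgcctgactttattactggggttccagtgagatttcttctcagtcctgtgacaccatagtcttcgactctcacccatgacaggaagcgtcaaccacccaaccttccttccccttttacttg
Siglecf, chr7:43351091-43351390, plus strand: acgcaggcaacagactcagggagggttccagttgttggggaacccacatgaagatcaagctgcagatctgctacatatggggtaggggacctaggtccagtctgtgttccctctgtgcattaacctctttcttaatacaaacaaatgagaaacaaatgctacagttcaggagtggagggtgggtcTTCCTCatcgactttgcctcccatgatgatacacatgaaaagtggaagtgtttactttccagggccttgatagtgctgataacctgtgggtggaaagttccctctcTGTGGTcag
The letters GAGGAA were found in 28.3% of all 32851 promoter windows of the table, TGTGGT in 16.8% and TTNNGCAA in 10.8%. Siglece held 3 matches to GAGGAA, and Siglech held 1 match to each of the 3 motifs, and these matches did not overlap. The interferon-stimulated response element (ISRE), matched in 3.4% of windows, had no match in the 6 windows of these genes. Among the 15 pairs of windows, Cd33 and Siglecf gave the highest local alignment score (43.0, against at most 12.0 for the other pairs). In that alignment 65 of 84 aligned bases were identical (77.4%), from base -165 to -81 of Cd33 and from -35 to 49 of Siglecf, counted from the start of transcription, and both stretches hold the TGTGGT match. These matches describe the sequence and do not show that a factor binds there.

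Estimated counts summed to between 12170686 and 21433841 per macrophage library and between 8648751 and 18768238 per microglia library. Cd163, the deleted gene, had 748 to 5275 counts in WT macrophages and 0 or 1 in CD163KO macrophages. In microglia it did not separate the genotypes (0 to 101 counts in WT, 5 to 23 in CD163KO). Y-linked genes had 799 counts in the microglia labelled female CD163KO MONO and at most 2 in the other female libraries. The macrophage library of WT males given PFF stood apart (Pearson's r of log2 FPKM with the other macrophage libraries of at most 0.809), as did that of male CD163KO MONO macrophages (at most 0.867). In the microglia of WT males given PFF and of male CD163KO MONO, Cst3 took 19.7% and 18.3% of all counts, against at most 5.5% in the other microglia. Homeostatic microglia markers summed to 21190 to 47372 FPKM in microglia and 1372 to 3053 in macrophages. Border-associated macrophage markers summed to 1946 to 5305 in macrophages and 29.2 to 169 in microglia, and neutrophil markers summed to 22113 to 134489 in macrophages and 947 to 2706 in microglia. In such bulk samples, fewer cells of a type and less RNA per cell cannot be told apart.

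The populations differed in which Siglec had the largest share of the family's RNA. In FPKM (reads per transcript length and library size), genes of different length can be compared. On this scale Siglech made up 73.6% to 86.3% of the summed FPKM of the 7 genes in microglia and 12.7% to 31.1% in macrophages. Siglece made up 35.6% to 56.2% in macrophages and 6.91% to 10.5% in microglia. The ranges of the populations did not overlap for either gene. These shares do not depend on the scaling of the library, although a higher share of 1 gene lowers those of the others. The shares of Siglec1 (2.89% to 6.50% in macrophages, 0.00% to 0.269% in microglia), Siglecg (2.04% to 6.67% and 0.162% to 1.23%) and Cd22 (1.27% to 5.36% and 0.304% to 0.774%) were also apart. Those of Cd33 (9.44% to 26.4% and 5.51% to 13.6%) and Siglecf (0.00% to 8.25% and 0.396% to 2.29%) overlapped. These shares have no counterpart over all genes tested. In FPKM itself Siglech alone of the 7 did not overlap, beside 6.82% of all genes tested in either direction. The summed FPKM of the 7 genes ran from 67.9 to 264.6 in macrophages (median 123.1) and from 326.4 to 980.0 in microglia (median 795.8).

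**Figure D1:**
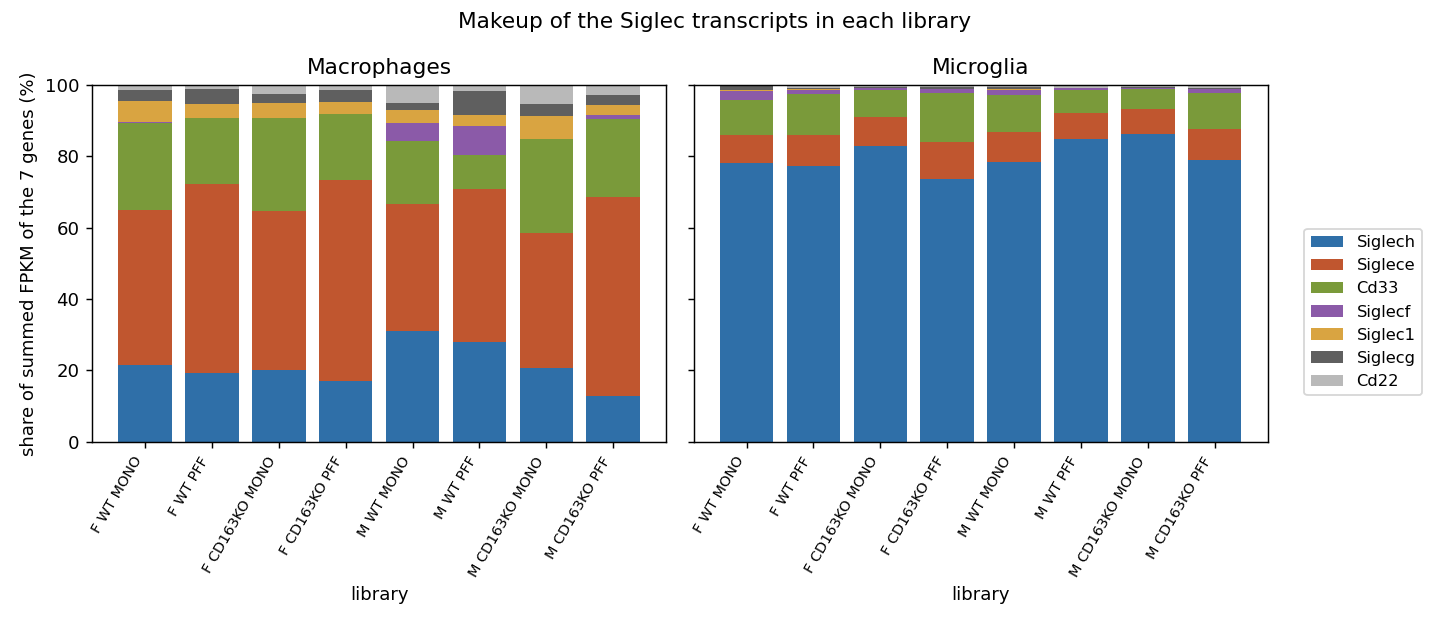
Share of the summed FPKM of the 7 Siglec genes (y axis, %) taken by each gene in the 8 macrophage libraries (left) and the 8 microglia libraries (right), labelled by sex (F or M), genotype and injected α-syn. Siglech takes at least 73.6% of each microglia bar and at most 31.1% of each macrophage bar, where Siglece takes at least 35.6%.

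Within macrophages, the levels in FPKM ran in the order Siglece, Siglech, Cd33, Siglec1, Siglecg, Cd22 and Siglecf by their medians over 8 libraries, and neighbours were compared over the 7 libraries tested. Siglece exceeded Siglech in 7 of 7 libraries (mean difference 1.14 ± 0.62 of log2(FPKM + 1), SD, n = 7, exact two-sided sign-flip permutation test, p = 0.0156, the smallest this test can give with 7 pairs), and Cd33 exceeded Siglec1 in 7 of 7 (2.03 ± 0.33, exact p = 0.0156). The other neighbours could not be separated. Siglech was above Cd33 in 3 of 7 libraries (exact p = 0.672) and Siglec1 above Siglecg in 3 of 7 (exact p = 0.625). Siglecg was above Cd22 in 6 of 7 (exact p = 0.203) and Cd22 above Siglecf in 6 of 7 (exact p = 0.297). In microglia the order was Siglech, Cd33, Siglece, Siglecf, Cd22, Siglecg and Siglec1. Here Siglech was above Cd33 in 7 of 7 libraries (3.01 ± 0.42 of log2(FPKM + 1), exact p = 0.0156), Siglece above Siglecf in 7 of 7 (2.77 ± 0.55, exact p = 0.0156) and Siglecg above Siglec1 in 7 of 7 (1.35 ± 0.65, exact p = 0.0156). Cd33 and Siglece were not separated (Cd33 higher in 5 of 7, exact p = 0.0625), nor were Siglecf and Cd22 (5 of 7, exact p = 0.0625) or Cd22 and Siglecg (5 of 7, exact p = 0.547). In total, 12 neighbouring pairs were compared, without adjustment. The order was taken from the same libraries, so these p-values describe it and are no independent test of it.

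**Figure D2:**
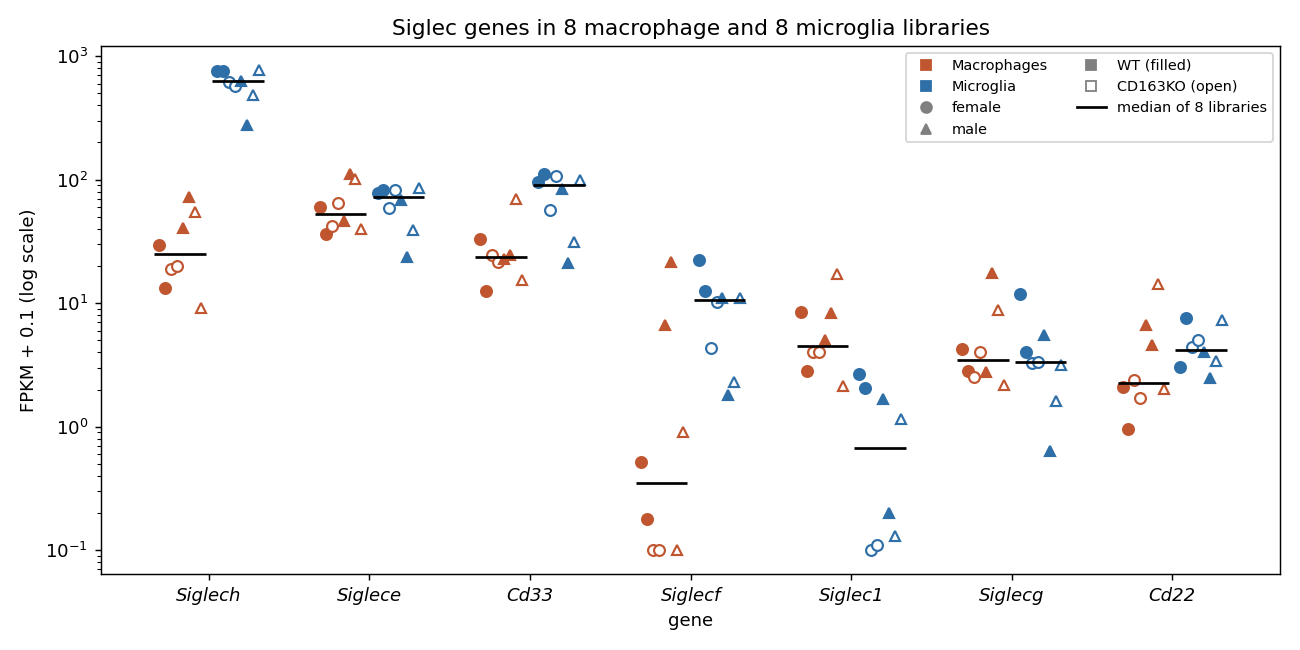
FPKM of the 7 Siglec genes (y axis, FPKM + 0.1 on a log scale) in each of 8 macrophage and 8 microglia libraries, with circles for females, triangles for males, filled symbols for WT, open symbols for CD163KO and a bar at the median. The microglia values of Siglech, 277 or more, lie above all macrophage values, 72.9 or less, and the other 6 genes overlap on this scale.

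To ask how the populations differ, microglia were compared with macrophages within matched groups of the same sex, genotype and treatment. Siglech was higher in microglia and Siglec1 was lower, and Siglece was lower on TMM-scaled counts but not in FPKM (log2 0.26, adjusted p = 0.631, limma). These 3 of the 7 genes passed an adjusted p of 0.05 with a log2 fold change of at least 1 in edgeR's quasi-likelihood test over 7 matched pairs. Of all 12819 genes tested, 18.4% passed, 6.9% of the genes being higher in microglia and 11.5% lower. The median log2 fold change of the 7 genes was -0.47 and that of all genes 0.32. The share of genes called in each direction depended on the test and the scaling, and the TMM factors (trimmed mean scaling of library sizes) ran from 0.328 to 2.08. Of the genes that passed, 37.5% were higher in microglia with edgeR, 41.1% with edgeR and RLE factors in place of TMM, 54.4% with DESeq2 and 89.7% with limma on log2(FPKM + 1), where the median of all genes was 1.12. With limma on this scale 3 of the 7 genes passed as higher and 1 as lower, beside 52.6% of the 11154 genes tested (47.2% higher and 5.42% lower), and these shares are the background of every count on the FPKM scale given below. With DESeq2 5 of the 7 passed, beside 33.2% of all genes. Log2 fold changes from edgeR are on the scale of TMM-scaled counts and those from limma on the scale of FPKM as deposited.

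Siglech, the DAP12-coupled receptor, had 9.02 FPKM in the lowest, 24.7 in the median and 72.9 in the highest macrophage library, and 277, 627 and 773 FPKM in microglia. The populations did not overlap on this scale, and in each of the 8 matched groups the microglia library was the higher one. Siglech was the only 1 of the 7 genes with all 8 microglia values above all 8 macrophage values in FPKM, which 4.56% of the tested genes showed. The reverse was shown by 0 of the 7 and by 2.26% of tested genes, and either direction by 6.82%. On the scale of TMM-scaled CPM (counts relative to the scaled library size), Siglech was again the only 1 higher without overlap (50.6 to 118 in macrophages, 684 to 1501 in microglia), which 5.03% of tested genes showed. The microglia of WT males given PFF and of CD163KO males given MONO were lowest in FPKM and highest in TMM-scaled CPM. The log2 fold change was 3.30 (SE 0.25, 9.87-fold, adjusted p = 6.8e-06, edgeR) and 4.61 on the FPKM scale (limma), and it passed in 15 of 15 alternatives. The exact sign-flip test over 7 pairs gave p = 0.0156. The macrophage libraries held 440 to 2899 counts of it. Plasmacytoid dendritic cells are the other cells known for Siglech. Their 10 markers summed to between 173 and 471 FPKM in macrophages and between 49.4 and 225 in microglia. The median was under 1 FPKM for 5 of the 10 in macrophages and for 7 in microglia. In all 8 libraries of the population, 3 of the 10 were at 0 in macrophages and 0 of the 10 in microglia. The microglia markers given above were also present in the macrophages. The part of either in the macrophage level of Siglech was not tested.

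Siglech reads were divided by RSEM among 3 RefSeq transcripts. In microglia this division was alike in all 8 libraries, with 46.8% to 55.5% of the counts on 1 transcript, 34.5% to 41.3% on another and 9.04% to 12.7% on the remaining one. In macrophages the same transcripts took 0.00% to 68.8%, 30.8% to 100% and 0.00% to 28.2%, and in the WT males given PFF a single transcript took all 2899 counts. The share is an estimate for reads that the transcripts have in common, so only the sum is used in the tests.

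Siglec1, which encodes the adhesion receptor of border and lymphoid tissue macrophages, had 2.05, 4.41 and 17.2 FPKM in the lowest, median and highest macrophage library and 0, 0.575 and 2.59 FPKM in microglia. In FPKM the highest microglia value lies above the lowest macrophage value, but macrophages were higher in 8 of 8 matched groups. On TMM-scaled CPM the populations were apart (32.0 to 76.1 against 0 to 7.97), which 5.74% of the tested genes showed in this direction and 10.8% in either. The log2 fold change was -4.57 (SE 1.12, adjusted p = 0.0139, edgeR), -1.58 on the FPKM scale, and it passed in 15 of 15 alternatives. The exact sign-flip test gave p = 0.0156, with Siglec1 lower in microglia in 7 of 7 pairs. In the female CD163KO MONO pair, microglia held 0 counts, and with microglia set to 3 counts, macrophages were at least 593-fold higher on TMM-scaled CPM and at least 135-fold higher on CPM without TMM factors. Border-associated markers moved with it, at 1946 FPKM or more in every macrophage library and 169 or less in every microglia library, and their part in the level of Siglec1 was not tested.

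Siglece, an inhibitory receptor, had 36.0, 53.1 and 111 FPKM in the lowest, median and highest macrophage library and 23.4, 72.8 and 85.5 FPKM in microglia. The populations overlapped widely in FPKM, and microglia were higher in 6 of 8 matched groups. On TMM-scaled CPM, however, microglia were lower in 8 of 8 groups, at 53.7 to 98.6 against 94.9 to 199. The log2 fold change was -1.13 (SE 0.21, 2.19-fold lower, adjusted p = 0.00263, edgeR) but 0.26 on the FPKM scale (adjusted p = 0.631, limma), and the exact test on FPKM gave p = 0.609. Without a filter on low counts it was -0.79 on the TMM scale, under the fold limit. The lower level of Siglece in microglia held on 1 scale and turned on the other. Its lower share of the Siglec RNA, given above, did not depend on the scale. That share does not measure its level, since Siglech took 73.6% to 86.3% of the sum in microglia. Neutrophil markers summed to 22113 to 134489 FPKM in macrophages and 947 to 2706 in microglia. Monocyte markers summed to 407 to 3420 and 11.8 to 117. The part of these cells in the level of Siglece was not tested.

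Siglecf, known from eosinophils, was present in all 8 microglia libraries with 79 to 497 counts, and in FPKM with a lowest value of 1.71, a median of 10.5 and a highest value of 22.1. In macrophages it had 0 counts in the CD163KO females given MONO, in those given PFF and in the CD163KO males given MONO, 4 in the WT females given PFF, 14 in the WT females given MONO, 42 in the CD163KO males given PFF, 299 in the WT males given MONO and 983 in the WT males given PFF (21.5 FPKM). Microglia were higher in 7 of 8 matched groups in FPKM, where the WT males given PFF went the other way. On TMM-scaled CPM they were higher in 6 of 8, and the WT males given MONO also went the other way (17.6 in macrophages, 13.5 in microglia). The log2 fold change was 3.10 (SE 1.44, adjusted p = 0.158, edgeR). Without the WT males given PFF it was 3.65 (adjusted p = 0.016), and it also passed with DESeq2 (3.36, adjusted p = 0.00222) and with limma on log2(FPKM + 1) (1.98, adjusted p = 0.0336). Over all alternatives its adjusted p ran from 0.00222 to 0.336. Its reads were given to 1 of 2 transcripts in all 5 macrophage libraries with counts, and the male WT MONO and male WT PFF libraries had theirs on different transcripts. In microglia the transcript of the latter held 73.2% to 100% of the counts. Against the libraries at 0, set to 3 counts, microglia of the 3 CD163KO groups in question (female MONO, female PFF and male MONO) were at least 9.9-fold, 32.2-fold and 68.0-fold higher on TMM-scaled CPM. On CPM without TMM factors they were at least 43.3-fold, 102-fold and 35.0-fold higher. Of 7 eosinophil markers, Prg2, Prg3 and Epx were at 0 FPKM in all 8 microglia libraries, while Ccr3 (0.08 to 3.03 FPKM) and Il5ra (0.05 to 2.85 FPKM) had counts in all 8. The 7 markers summed to 0.51 to 5.88 FPKM in microglia. In macrophages they summed to 35.7 to 328 FPKM, and the WT males given PFF, highest in Siglecf, had 49.1 FPKM of these markers. There Ear6 was at 40.4 FPKM, Prg2 at 8.63 and Ear1 at 0.08, with Epx, Prg3, Il5ra and Ccr3 at 0. Their part in the level of Siglecf was not tested.

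**Figure D3:**
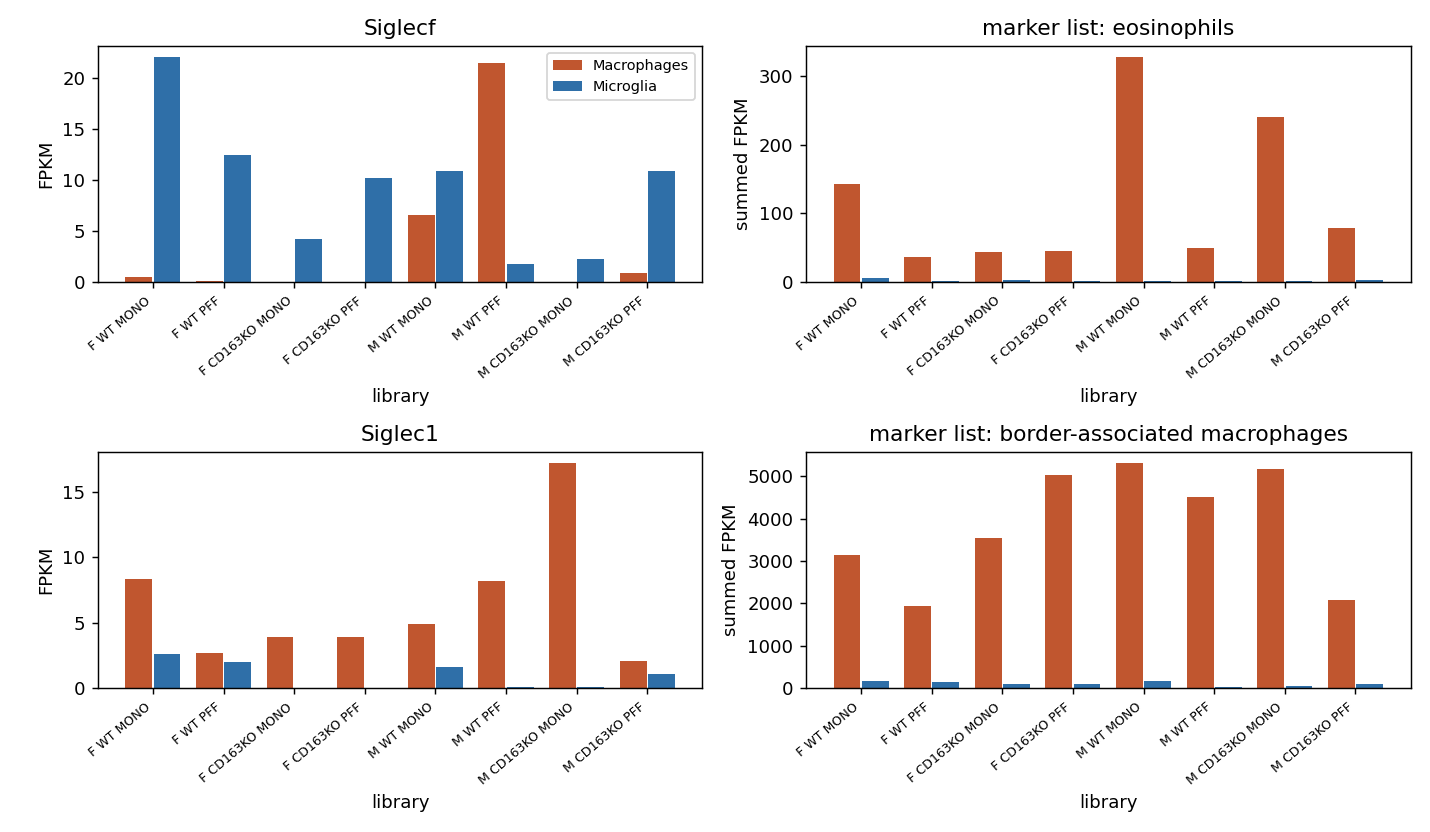
Siglecf (top left) and Siglec1 (bottom left) in FPKM in each library, beside the summed FPKM of 7 eosinophil markers (top right) and 10 border-associated macrophage markers (bottom right), for macrophages and microglia by sex, genotype and treatment. Siglecf reaches 22.1 FPKM in microglia, where the eosinophil markers sum to 5.88 FPKM or less, and Siglec1 is at or near 0 in several microglia libraries.

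Cd33, a Siglec of myeloid cells whose human counterpart is linked to the risk of Alzheimer's disease, had 12.5, 23.6 and 69.8 FPKM in the lowest, median and highest macrophage library and 21.0, 89.8 and 112 FPKM in microglia. Microglia were higher in 6 of 8 matched groups in FPKM. The groups that went the other way were the male WT PFF and male CD163KO MONO groups, whose libraries stood apart. On TMM-scaled CPM microglia were higher in 5 of 8, and the groups that went the other way were female WT MONO, female CD163KO MONO and male CD163KO MONO. The log2 fold change was 0.42 (SE 0.27, adjusted p = 0.312, edgeR) and 1.75 on the FPKM scale (adjusted p = 0.00612, limma). Its adjusted p ran from 0.00612 to 0.477 over the alternatives. The exact test on log2(FPKM + 1) gave p = 0.0312. Of its 2 transcripts, the same one held 61.9% to 83.3% of the counts in microglia and 72.4% to 91.8% in macrophages.

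Siglecg had 2.08, 3.33 and 17.4 FPKM in the lowest, median and highest macrophage library and 0.53, 3.21 and 11.8 FPKM in microglia. Microglia were higher in 5 of 8 matched groups in FPKM and in 0 of 8 on TMM-scaled CPM. Its log2 fold change was -1.57 (SE 0.61, adjusted p = 0.0948, edgeR, and 0.0435 without the block of matched groups), -1.28 without the WT males given PFF (adjusted p = 0.0422) and -0.08 on the FPKM scale. Its adjusted p ran from 0.00687 to 0.895 over the alternatives. Cd22 had 0.86, 2.14 and 14.2 FPKM in macrophages and 2.37, 4.12 and 7.54 FPKM in microglia. Its log2 fold change was -0.47 (SE 0.51, adjusted p = 0.556, edgeR) and 0.66 on the FPKM scale (adjusted p = 0.18, limma). Both genes overlapped between the populations on both scales, and for both the direction within matched groups depended on the scale, Cd22 being higher in microglia in 5 of 8 in FPKM and in 2 of 8 on TMM-scaled CPM. Of the signalling chains of the B cell receptor, Cd79a was at most 0.29 FPKM in microglia and at most 41.3 in macrophages, while Cd79b was at 16.5 to 73.3 FPKM in microglia and 6.58 to 93.9 in macrophages. The 9 B cell markers found summed to 14.2 to 144 FPKM in macrophages and 18.7 to 92.5 in microglia, and their part in the levels of Cd22 and Siglecg was not tested.

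**Figure D4:**
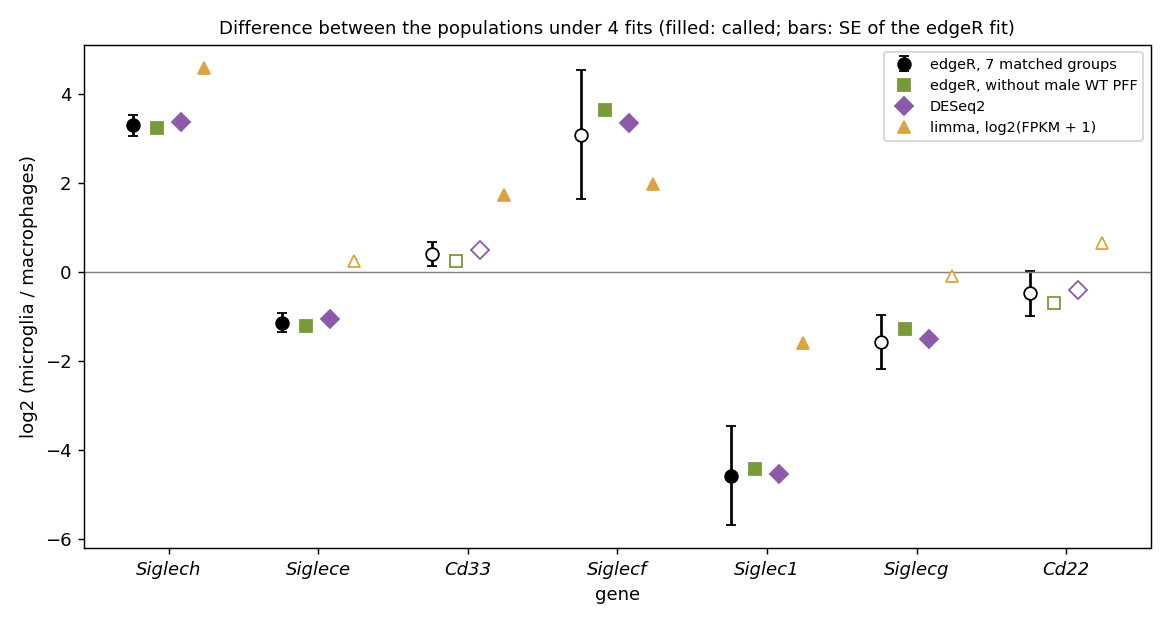
Log2 ratio of microglia to macrophages (y axis) for the 7 Siglec genes by edgeR over 7 matched groups (circles, bars are SE), by edgeR without the male WT PFF group (squares), by DESeq2 (diamonds) and by limma on log2(FPKM + 1) (triangles), filled where the adjusted p was at most 0.05 with a log2 ratio of at least 1 in size. Siglech and Siglec1 are filled under all 4 fits, and Siglece is at -1.13 with edgeR and at 0.26 with limma.

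Genes around the Siglecs were read from lists, and counts with edgeR stand against 6.9% of all genes higher in microglia and 11.5% lower. Of 14 adaptors, kinases and phosphatases downstream of Siglecs, 2 were higher in microglia and 3 lower, with a list median of 0.08 against 0.32 for all genes. Inpp5d, an inositol phosphatase that opposes PI3-kinase signals, was higher (log2 1.74, SE 0.19, adjusted p = 8.49e-05), as was Socs3, a feedback inhibitor of cytokine signals (1.16, SE 0.26, adjusted p = 0.0083). Fgr, a Src family kinase of myeloid cells, was lower (-4.58, SE 0.64, adjusted p = 0.000448), as were the adaptors Fcer1g (-2.74, SE 0.72, adjusted p = 0.0199) and Hcst (-2.36, SE 0.45, adjusted p = 0.00331). On the FPKM scale Hcst did not pass (-0.93, adjusted p = 0.0868, limma). Tyrobp, the partner of Siglec-H, had medians of 3176 FPKM in macrophages and 3052 in microglia and did not pass (log2 -1.56, adjusted p = 0.0508, edgeR). Without the male WT PFF group it passed as lower (-1.97, adjusted p = 7.41e-05), and on the FPKM scale it was at -0.07. The ITIM phosphatase Ptpn6 (-0.40, adjusted p = 0.149) and Ptpn11 (0.01, adjusted p = 0.997) did not either. On the FPKM scale 8 of the 14 passed as higher and 2 as lower.

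Receptors that share the partners of the Siglecs were read next, against the same shares of all genes. Of 8 other DAP12-coupled receptors 6 were lower and 1 higher (list median -7.32), and on the FPKM scale 6 were lower and 2 higher. Trem1, a receptor that amplifies inflammation in neutrophils and monocytes, had a median of 20.8 FPKM in macrophages and of 0 in microglia, where the highest library had 0.04 FPKM. Its fitted log2 fold change of -11.57 (adjusted p = 5.72e-06, edgeR) rests on values at or near 0 and is no bound. The same holds for Cd300ld (-8.76, adjusted p = 0.000126, median 0.125 FPKM in microglia) and Sirpb1a (-8.72, adjusted p = 0.00107, median 0). Trem2, the lipid-sensing receptor of microglia, was the higher one, with medians of 257 FPKM in macrophages and 2143 in microglia (log2 1.65, SE 0.32, adjusted p = 0.0035). Of 14 other ITIM receptors of myeloid cells 10 were lower and 2 higher (list median -2.18), and on the FPKM scale 6 were lower and 3 higher. The lower ones were led by Clec12a (-7.54, adjusted p = 1.05e-05), Lilrb4a (-5.40, adjusted p = 1.05e-06) and Cd300lf (-5.26, adjusted p = 0.000126). The higher ones were Sirpa (2.12, adjusted p = 0.000269), the receptor of the don't-eat-me signal CD47, and Lair1 (1.43, adjusted p = 0.000852). Ceacam1 was lower with edgeR (-1.10, adjusted p = 0.00259) and at 0.29 on the FPKM scale. Neutrophil markers moved with these lists, as given above, as did monocyte markers, which summed to 407 to 3420 FPKM in macrophages and 11.8 to 117 in microglia, and their part was not tested.

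The enzymes that make and remove the ligands of Siglecs were read in the same way. Of 20 sialyltransferases 13 could be tested, with 1 higher in microglia and 2 lower, beside 6.9% and 11.5% of all genes. On the FPKM scale 12 could be tested, with 6 higher and 1 lower. St3gal5, which starts ganglioside synthesis, was higher (log2 1.28, SE 0.28, adjusted p = 0.00711), with medians of 10.7 FPKM in macrophages and 84.9 in microglia. St8sia4, which extends polysialic acid, was lower (-2.25, SE 0.46, adjusted p = 0.00532), as was St3gal1 (-3.46, SE 1.02, adjusted p = 0.0339), at medians of 0.81 and 0.225 FPKM. On the FPKM scale St3gal1 did not pass (-0.54, adjusted p = 0.0981, limma). Of 9 genes of sialic acid synthesis, activation and transport and of the 4 sialidases and esterases tested out of 6, 0 passed with edgeR, and on the FPKM scale 5 and 3 passed as higher. Of the remaining Siglec genes, Mag, the myelin-associated glycoprotein of oligodendrocytes, had medians of 1.40 FPKM in macrophages and 24.2 in microglia (log2 2.55, SE 1.06, adjusted p = 0.12, edgeR). It passed without the male WT PFF group (1.86, adjusted p = 0.0232, edgeR) and on the FPKM scale (2.92, adjusted p = 0.000356, limma). Oligodendrocyte markers summed to 23.0 to 166 FPKM in macrophages and 15.4 to 159 in microglia. Siglec15 had a median of 0 in both.

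To ask whether the fibrils changed the Siglecs, PFF was compared with MONO within each population, with sex and genotype as further terms, over 7 libraries. Of the 7 genes 0 passed in macrophages and 0 in microglia with edgeR, as did 0.0% of the 11067 and 11737 genes tested, and 0 of the 7 passed with DESeq2 or limma (Siglecf in macrophages was under limma's filter). At an unadjusted p under 0.05, 125 of all genes were found in macrophages and 737 in microglia, with none of the 7 genes among them. In macrophages the log2 fold changes of the 7 genes ran from -0.71 (Cd22, SE 0.81) to 0.91 (Siglecg, SE 0.91), with Siglech at -0.20 (SE 0.36), Siglec1 at -0.21 (SE 0.45), Siglece at 0.47 (SE 0.30), Siglecf at 0.06 (SE 1.84) and Cd33 at -0.31 (SE 0.38). In microglia they ran from -0.75 (Siglecg, SE 0.73) to 1.00 (Cd22, SE 0.45, adjusted p = 0.76, edgeR), with Siglech at 0.34 (SE 0.48), Siglec1 at 0.78 (SE 1.92), Siglece at 0.47 (SE 0.27), Siglecf at 0.15 (SE 0.56) and Cd33 at 0.53 (SE 0.30). The sign for Siglec1 is not settled, since on both scales it was lower with PFF in 2 of 3 matched strata (-1.28 to 0.04 in log2 on TMM-scaled counts). Siglece was higher with PFF in 3 of 3 matched strata of sex and genotype in each population on TMM-scaled counts (0.19 to 0.67 in log2 in macrophages, 0.19 to 0.69 in microglia), but in 2 of 3 in FPKM in each. On TMM-scaled counts Cd33 and Cd22 were each higher with PFF in 3 of 3 strata in microglia and lower in 3 of 3 in macrophages. In FPKM each was higher in 2 of 3 strata in microglia, and in macrophages Cd33 was lower in 2 of 3 and Cd22 in 3 of 3. Siglecg was also higher with PFF in 3 of 3 strata in macrophages on TMM-scaled counts (0.24 to 1.97 in log2) and in 2 of 3 in FPKM. How many of all genes went 1 way in 3 of 3 strata was not counted, so these directions alone do not show an effect. The effects on the 7 genes were not shown to differ between the populations (0 of 7, and 0.0% of the 12819 genes tested, with edgeR), and 0 of the 7 had an unadjusted p under 0.05.

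Between CD163KO and WT, 0 of the 7 genes passed in macrophages or in microglia with edgeR or DESeq2, nor did any with limma, where Siglecf in macrophages was under the filter. Of all genes 1 passed in macrophages (0.00904%), Cd163 itself, and 0 in microglia (0.0%). In these populations 76 and 141 genes had an unadjusted p under 0.05, none of the 7 among them. In macrophages Siglecf had the lowest log2 fold change, -3.77 (SE 1.63, adjusted p = 1.0, edgeR), with counts of 0, 0 and 42 in CD163KO and 4, 14, 299 and 983 in WT, and Cd33 the highest, 0.39 (SE 0.36). Without the CD163KO males given PFF, Siglecf was at -6.61, the furthest of the values with 1 group left out (-6.61 to -3.29). Siglech was at -0.52 (SE 0.38), Siglec1 at -0.32 (SE 0.44), Siglece at 0.13 (SE 0.30), Siglecg at -0.50 (SE 0.88) and Cd22 at 0.33 (SE 0.82). In microglia Siglec1 had the lowest value, -4.24 (SE 2.59, adjusted p = 1.0, edgeR), and Cd22 the highest, -0.13 (SE 0.44), with Siglech at -0.33 (SE 0.46), Siglece at -0.19 (SE 0.27), Siglecf at -0.67 (SE 0.56), Siglecg at -0.56 (SE 0.72) and Cd33 at -0.26 (SE 0.30). Siglec1 had 0 and 1 counts in the CD163KO females given MONO and PFF, 108 in the CD163KO males given PFF, and 144, 200, 88 and 12 in the WT females given MONO and PFF and the WT males given MONO and PFF. The CD163KO females were thus low and the genotypes overlapped through the males. The border-associated markers summed to 95.9 and 95.0 FPKM in these females and to 157 and 130 in the WT females. The value for Siglec1 without the female CD163KO MONO group, whose microglia held the Y-linked counts, was -1.41, and without the CD163KO males given PFF it was -8.39. The genotype effects on the 7 genes did not pass as different between the populations (0 of 7 and 0.0% of all genes, edgeR), with the lowest difference for Siglec1 (log2 -4.55, SE 2.16) and the highest for Siglecf (3.82, SE 1.79).

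A different effect of PFF in CD163KO than in WT was tested by the interaction of genotype and treatment, and 0 of the 7 genes passed in either population with edgeR (0.0% of all genes tested in each), DESeq2 or limma. In microglia 505 genes had an unadjusted p under 0.05, with Siglecf among them (log2 2.19, SE 0.90, adjusted p = 0.952, edgeR). Siglecf had 4.21 FPKM with MONO and 10.1 with PFF in CD163KO females, 22.1 and 12.5 in WT females, and 10.9 and 1.71 in WT males. On TMM-scaled CPM, the scale of the test, these were 5.30 and 12.9, 26.1 and 15.9, and 13.5 and 9.89. In microglia the other values were -0.63 for Siglech, 0.01 for Siglece, 1.65 for Siglecg, 0.65 for Cd33 and -1.28 for Cd22. In macrophages they ran from -1.09 (Siglecg, SE 2.11) to 3.06 (Siglecf, SE 4.42), and 47 genes had an unadjusted p under 0.05. Siglech was there at -0.63, Siglec1 at -0.06, Siglece at -0.16, Cd33 at 0.18 and Cd22 at -0.32. In each population the only MONO library of CD163KO in this test is that of the females. The microglia library of that group held 799 Y-linked counts and its macrophage library 0. Siglec1 had the highest interaction in microglia (8.82, SE 4.52, adjusted p = 0.952, edgeR), which rests on libraries with 0, 1 and 12 counts. With 1 group left out it ran from 3.71 (without the CD163KO males given PFF) to 11.64 (without the CD163KO females given PFF).

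Males and females were compared last. With edgeR 0 of the 7 genes passed in macrophages and 0 in microglia, as did 0.0% of all genes in each. Y-linked genes had at most 2 counts in female macrophages and 350 to 6545 in the males tested, and no gene passed there. A gene that did not pass is thus not shown to be equal between the sexes. Siglecf in macrophages had the largest value, with 0, 0, 4 and 14 counts in females and 42, 299 and 983 in males. The male CD163KO MONO library, left out of the test, held 0. The log2 fold change was 5.69 (SE 1.65, adjusted p = 1.0, edgeR), and Siglecf was the only 1 of the 7 with an unadjusted p under 0.05, beside 150 of all genes. DESeq2 gave 5.63 (adjusted p = 0.0225), and Siglecf was again the only 1 of the 7 that passed, beside 0.145% of all genes. Over the alternatives its adjusted p ran from 0.0225 to 1.0, DESeq2 being the only one under which it passed. The effect of sex on Siglecf in microglia was -0.25 (SE 0.51), and the difference between the effects in the populations was -6.21 (SE 1.63, adjusted p = 1.0, edgeR, 0 of 7 and 0.0% of all genes called) and -5.87 with DESeq2 (adjusted p = 0.00394, with 0.421% of all genes called). Eosinophil markers summed to 35.7, 43.4, 44.1 and 142 FPKM in the 4 female macrophage libraries and to 49.1, 78.4 and 328 in the 3 males tested. They summed to 240 in the male CD163KO MONO library, which held no Siglecf, and their part was not tested. The other 6 genes lay between -0.65 (Siglec1, SE 0.45) and 0.79 (Cd22, SE 0.82) in macrophages, with Siglech at -0.09 (SE 0.38), Siglece at -0.44 (SE 0.30), Siglecg at -0.31 (SE 0.94) and Cd33 at -0.60 (SE 0.37). In microglia the values ran from -0.42 (Siglecg, SE 0.68) to 2.15 (Siglec1, SE 2.21), with Siglech at 0.29 (SE 0.48), Siglece at 0.11 (SE 0.27), Cd33 at -0.05 (SE 0.29) and Cd22 at 0.36 (SE 0.45). The female libraries include the microglia with the Y-linked counts, and without its group Siglec1 was at 0.27. Siglec1 turned to -1.21 without the CD163KO males given PFF, and Siglech to -0.31 on the FPKM scale. Of the lists of pathway genes, 0 members passed in any comparison of treatment, genotype or sex with edgeR.

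**Figure D5:**
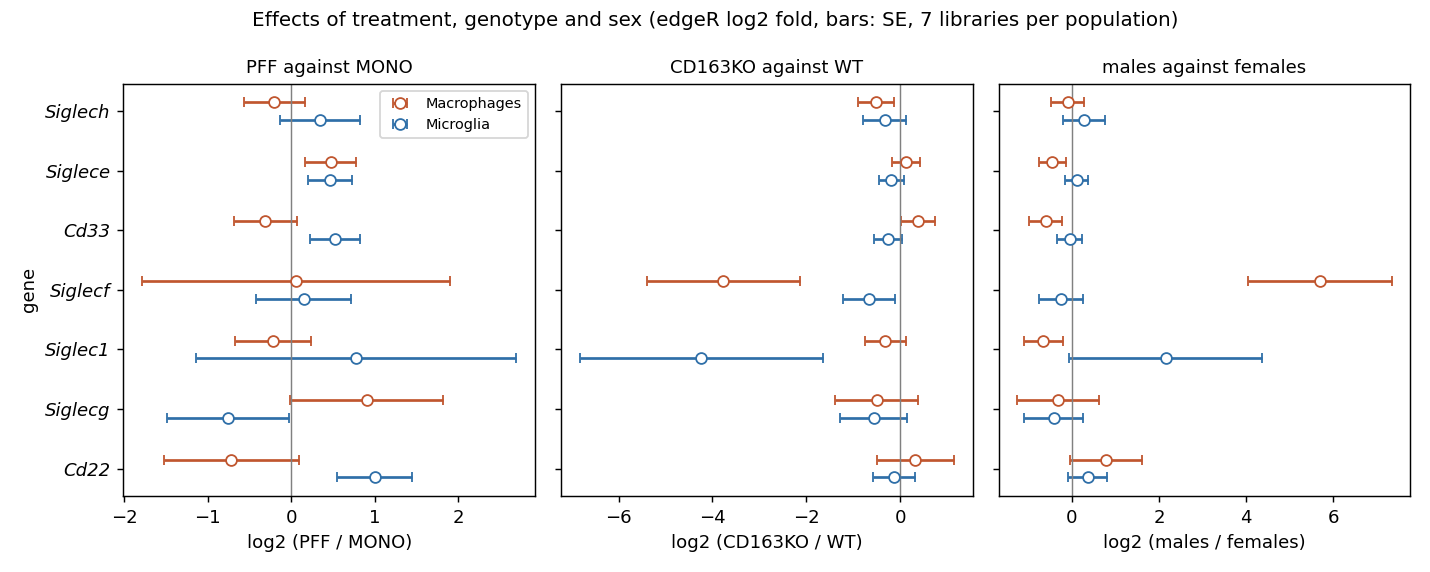
Log2 fold changes (x axes) of the 7 Siglec genes for PFF against MONO (left), CD163KO against WT (middle) and males against females (right) in macrophages and microglia, from edgeR over 7 libraries per population, with bars of 1 SE. No value passed the adjusted p, and the widest bars belong to Siglecf in macrophages and Siglec1 in microglia, which have libraries at or near 0 counts.

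Within a population, the genes whose TMM-scaled levels followed each Siglec most closely over the 8 libraries were listed as a description. In microglia these were H2ac23, Olfml3 and Cebpb for Siglech (Pearson's r of 0.991, 0.981 and 0.979), Miip and Tyrobp for Siglece (0.987 and 0.984) and Mob3a, Tmco6 and Usp20 for Cd33 (0.979, 0.977 and 0.976). For Siglecf they were Taf6, Palb2 and Crat (0.981, 0.960 and 0.959) and for Cd22 Golga2, Clip2 and H13 (0.951, 0.948 and 0.946). In macrophages they were Paqr6, Cldn10 and Camkk2 for Siglec1 (0.968, 0.941 and 0.905) and Zfand2b, Rad9a and Mtmr14 for Siglecg (0.962, 0.948 and 0.947). High values are common over 8 libraries that share their scaling, since 1% of the 10327 genes compared in microglia reached 0.920 with Siglech and 0.826 with Cd22.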

How the data were processed

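Reads had been cleaned, mapped with Bowtie2 and quantified with RSEM by the authors (build mm10 per the submitters' notes). Each deposited table lists RefSeq transcripts with an estimated count, made by the authors without normalization, and an FPKM, scaled by the authors to transcript length and assigned reads. Transcripts not listed were taken as 0. Here, 27627 of 27787 transcripts (99.42%) were given symbols from the RefSeq table of GRCm38.p6 and summed to 18576 genes, and the summed estimated counts were rounded. The 7 genes and the gene lists were chosen with earlier results of these data known.

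Counts were tested with edgeR's quasi-likelihood test (TMM factors, at least 10 counts in at least 3 libraries, Benjamini-Hochberg adjustment over all genes, called at an adjusted p of at most 0.05 and a log2 fold change of at least 1 in size). Populations were compared with the matched group of sex, genotype and treatment as a block, since the methods describe both as gates of the same brain suspensions. That each pair of tables holds the same animals is not stated, and in the female CD163KO MONO pair the microglia held 799 Y-linked counts and the macrophages 0. Treatment, genotype and sex were additive terms within a population. No p adjusted over the 7 genes alone is given. Alternatives were DESeq2, RLE factors, other count filters, limma on log2(FPKM + 1) and log2(FPKM + 0.1), all 16 libraries, no block, no fold limit and leaving out each group. The differences of log2(FPKM + 1) of single genes were also tested by an exact two-sided sign-flip permutation test.

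Named are the 7 genes in every comparison (by their extremes in the differences of effects between populations), list genes that passed (the 3 largest per direction where 3 or more passed) and the 3 genes most correlated with each member (1 of those for Siglece is not reported here). A few list genes of interest that did not pass (Tyrobp, Ptpn6, Ptpn11, Mag, Siglec15), Trem2 and Ceacam1 were named after their values were seen. Folds against 0 counts were computed against 3 counts, which covers counting error only, since PCR copies count as reads. The batches of mice named in the methods could not be tied to libraries. Scripts were tested on simulated data. R 4.3.3, edgeR 4.0.16, limma 3.58.1, DESeq2 1.42.0, Python 3.11.15, pandas 2.3.3, scipy 1.17.1 and Biopython 1.88 were used.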

Additional observations from a re-analysis of the deposited data

Results flagged for a closer look

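In 14 groups (7 genes in 2 populations, 8 libraries each), the highest and the lowest library were compared with the rest by the gap to the nearest value over the whole range, and 6 values, from 3 libraries, lay beyond Dixon's limit of 0.526 for 8 samples. Chance would flag about 1 in 20 groups if the values were normal and the groups independent. That was not tested for these FPKM values, and genes of 1 library share its scaling. In the male CD163KO MONO macrophages, which enter the ranges over 8 libraries but not the tests as reported, 3 genes were far above the other macrophage libraries: Siglec1 with 17.19 FPKM (next 8.31), Cd33 with 69.76 FPKM (next 33.2) and Cd22 with 14.19 FPKM (next 6.54). On TMM-scaled CPM the same library had 70.3 of Siglec1, below the 76.1 of WT females given MONO, 110 of Cd33, below the 132 of CD163KO females given MONO, and 35.7 of Cd22, the highest value. In macrophages of WT males given PFF, Siglecf had 21.49 FPKM (next 6.51) and Siglecg 17.37 FPKM (next 8.73), and both were also highest on the TMM scale (40.1 and 31.9). In microglia of WT females given MONO, Siglecg had 11.82 FPKM (next 5.47) and was highest on the TMM scale as well (13.8).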

How the results depend on the processing

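Siglech and Siglec1 passed between the populations under 15 of 15 alternatives, Siglece under 12, Siglecf under 4, Siglecg under 3, Cd33 under 2 and Cd22 under 0. The number of the 7 genes that passed was 3, against 5 with DESeq2 and 3 to 5 when each group was left out (5 without male WT PFF, Siglecf and Siglecg being those added). Without a filter on counts 2 passed, beside 2413 of 18251 genes, because Siglece, at -0.79 (adjusted p = 0.0328, edgeR), was under the fold limit. Without the replicate block of matched groups 4 passed, Siglecg being the one added (adjusted p = 0.0435), and 2709 genes passed in place of 2358. All genes called numbered 4256 with DESeq2, 5868 and 6294 with limma at the larger and smaller pseudocount, and 4074 without male WT PFF. In the other comparisons 0 or 1 gene was called with edgeR, up to 54 with DESeq2, up to 9 with limma, up to 105 without a count filter, and up to 3504 when 1 group was left out (genotype and treatment in macrophages without female WT PFF). DESeq2 called 1 of the 7 genes, Siglecf, in males against females in macrophages and 1 in the difference of that effect between populations.

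Directions turned on the FPKM scale (limma, larger then smaller pseudocount) for Siglece (0.26 and 0.26) and Cd22 (0.661 and 0.885) between populations, Siglech with PFF in microglia (-0.25 and -0.25), with sex in macrophages (0.52 and 0.52) and microglia (-0.31 and -0.31) and with genotype in microglia (0.20 and 0.20), Cd33 with genotype in macrophages (-0.04 and -0.038), Cd22 with genotype in microglia (0.30 and 0.37) and Siglec1 with sex in microglia (-0.11, larger pseudocount only). With all 16 libraries, Cd22 with genotype in microglia was 0.11. Leaving out a group turned Siglech with PFF in macrophages (range -0.393 to 0.024), with sex in macrophages (-0.28 to 0.25) and with PFF in microglia (-0.011 to 0.579), Cd22 with genotype in microglia (-0.626 to 0.048) and Siglec1 with sex in microglia (-1.21 to 4.34). None of these values but Siglece's had passed the test, and the causes were not tested. The interaction of genotype and treatment could not be fitted without female CD163KO MONO. Where a library held 0 counts (Siglecf in 3 macrophage libraries, Siglec1 in 1 microglia library), up to 3 counts are allowed and its folds are bounds. Without the female CD163KO MONO group, 3 of the 7 genes passed between the populations, beside 1754 of 12652 genes tested.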
